A study of Mus musculus with 23 samples.

Results

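Expression of 10 alpha and beta tubulin genes, out of 55487 gene identifiers counted in each library, was followed in cultured mouse hippocampal neurons with and without a magnetic pulling force. The genes were chosen by name: the 4 alpha tubulin genes Tuba1a, Tuba1b, Tuba1c and Tuba4a, and the 6 beta tubulin genes Tubb2a, Tubb2b, Tubb3, Tubb4a, Tubb5 and Tubb6. All 10 names matched a single identifier. The neurons came from C57Bl/6 pups at postnatal day 1 (P1). They were grown in microfluidic XONA chambers, where axons extend into a side of their own, and every culture, controls included, received magnetic nanoparticles (MNPs) at 5 µg/ml. Stretched cultures, labelled "treated", were held in a magnetic gradient of 50 T/m between DIV (day in vitro) 1 and DIV 6, while controls had a null gradient. RNA was collected from the axonal side or from the cell-body side, called soma here, which gave 6 control and 6 stretched libraries of somata, and 5 control and 6 stretched libraries of axons. The labels do not say whether replicates came from separate cultures or litters, so p-values measure only the spread between these samples.

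Microtubules are polymers of dimers, each made of one alpha and one beta tubulin protein. Mammals encode both proteins in several genes, called isotypes, whose proteins are nearly alike except at the carboxy-terminal tail. Growing axons depend on a steady supply of tubulin. Tuba1a is the main alpha isotype of developing neurons, Tubb3 is largely restricted to neurons in the brain and serves as their marker, and Tubb2a, Tubb2b and Tubb5 are further beta isotypes of the developing brain. Tubb4a is known from neurons and oligodendrocytes, while Tuba1b, Tuba1c and Tubb6 are made in many cell types. Cells also adjust tubulin mRNA to the amount of free tubulin: when it is in excess, the first amino acids of the emerging tubulin chain are recognised at the ribosome and the mRNA is degraded.

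The first 30 coding bases of 9 of the genes are shown because they hold this recognition signal. They come from the GENCODE M21 transcripts, and capitals mark the first 12 bases, which are the first 4 codons.
Tuba1a: ATGCGTGAGTGCatctccatccatgttggc
Tuba1b: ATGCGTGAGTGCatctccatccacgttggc
Tuba1c: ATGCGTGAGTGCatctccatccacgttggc
Tuba4a: ATGCGCGAGTGCatttcagtccatgtgggg
Tubb2a: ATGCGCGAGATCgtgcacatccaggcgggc
Tubb2b: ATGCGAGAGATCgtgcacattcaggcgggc
Tubb3: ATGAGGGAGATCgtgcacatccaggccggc
Tubb4a: ATGCGGGAAATCgtgcacctgcaagccggt
Tubb5: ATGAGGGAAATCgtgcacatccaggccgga
The first 12 bases of Tuba1a, Tuba1b and Tuba1c were identical, and each of the other 6 genes shown had a spelling of its own.

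How far the isotypes differ decides whether their reads can be told apart. Over the coding sequence, Tuba1b and Tuba1c shared 99.4% of bases, Tuba1a and Tuba1c 98.4%, Tuba1a and Tuba1b 98.3%, and Tubb2a and Tubb2b 96.5%. Every other pair within a family shared between 81.2% and 87.7%, also over 1275 bases except for Tubb4a and Tubb5 (1335). The last 60 coding bases of 3 beta genes, which encode the tail, show both cases, with the stop codon in capitals.
Tubb2a: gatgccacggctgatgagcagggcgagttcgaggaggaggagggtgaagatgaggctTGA
Tubb2b: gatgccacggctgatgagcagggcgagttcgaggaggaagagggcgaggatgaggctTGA
Tubb3: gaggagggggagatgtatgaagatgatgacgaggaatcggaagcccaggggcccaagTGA
Tubb2a and Tubb2b differed at 3 of these 60 bases, while Tubb3 differed from Tubb2a at 35. Of all windows of 150 bases, the read length in the labels, 54.7% of those in the Tuba1a transcript also occurred unchanged in another gene. The share was 57.9% for Tuba1b, 46.7% for Tuba1c, 27.9% for Tubb2a and 20.1% for Tubb2b. No such window of Tubb3, Tubb4a, Tubb5 or Tubb6 occurred in another gene. For Tuba4a 45.7% of windows were shared, all with Stk16, a kinase gene on the opposite strand that overlaps 48.6% of its exonic bases. Stk16 itself was counted at 72.3 to 97.8 counts per 1000000 in control and 55.4 to 72.4 in stretched somata. In axonal libraries it ran from 0 to 395 in control and from 0 to 82.5 in stretched cultures. Gm49450, on the same strand, overlaps exons of Tuba1a (26.2% of bases) and of Tuba1b, and had no count in any library. Reads that fit more than 1 place or gene are kept in separate totals in the files, so the levels of the 3 Tuba1 genes, Tuba4a, Tubb2a and Tubb2b are uncertain and may be too low.

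Promoter sequence is shown for 3 members that were lower in stretched somata and whose RefSeq (GRCm38.p6) and GENCODE starts lie within 30 bases of each other. None of the 3 passed in the fit with length and GC offsets given below. Each line holds the 250 bases before the RefSeq start, with capitals marking any match on either strand to TATAAA (the TATA box core), CCAAT (the CCAAT box) or GGGCGG (the GC box). Tuba1c spans chr15:99029641-99029890 on the plus strand, Tubb2a chr13:34078009-34078258 on the minus strand, and Tubb5 chr17:35838302-35838551 on the minus strand.
Tuba1c: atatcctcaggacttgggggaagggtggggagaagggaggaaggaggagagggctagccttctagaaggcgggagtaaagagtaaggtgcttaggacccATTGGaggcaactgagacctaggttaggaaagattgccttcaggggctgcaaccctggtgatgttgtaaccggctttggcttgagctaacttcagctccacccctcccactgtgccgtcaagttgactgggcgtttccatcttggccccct
Tubb2a: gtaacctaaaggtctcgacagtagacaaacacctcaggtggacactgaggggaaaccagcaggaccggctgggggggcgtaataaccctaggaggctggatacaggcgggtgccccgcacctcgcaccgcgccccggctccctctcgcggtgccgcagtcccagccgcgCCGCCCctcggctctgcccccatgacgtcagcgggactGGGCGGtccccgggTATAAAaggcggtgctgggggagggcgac
Tubb5: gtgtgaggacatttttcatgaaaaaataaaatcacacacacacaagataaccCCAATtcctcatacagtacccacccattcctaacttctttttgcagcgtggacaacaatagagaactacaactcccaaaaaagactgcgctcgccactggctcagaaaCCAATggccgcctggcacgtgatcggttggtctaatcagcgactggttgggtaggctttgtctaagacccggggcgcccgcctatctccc
The Tuba1c window held 1 CCAAT match, the Tubb5 window 2 CCAAT matches, and the Tubb2a window 1 TATAAA and 2 GGGCGG matches. No motif was present in all 3 windows. Of 32851 RefSeq promoter windows of the same length, 12.4% held TATAAA, 33.8% CCAAT and 32.7% GGGCGG.

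In the mm10 genome (GRCm38 coordinates of the annotation), Tuba1a, Tuba1b and Tuba1c lie together on chromosome 15, at 98949837-98953703, 98931425-98934565 and 99029891-99038110. Tuba4a lies on chromosome 1 at 75214228-75219865. Tubb2a and Tubb2b are neighbours on chromosome 13, at 34074274-34078007 and 34126748-34130466. Tubb3 lies on chromosome 8 at 123411424-123422015 and Tubb6 on chromosome 18 at 67390717-67402749. Tubb4a and Tubb5 lie on chromosome 17, at 57080066-57087782 and 35833921-35838306. The annotation gives each of the 10 genes a transcript of 4 exons.

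Total counts ran from 16369153 to 43048953 per library, so that 3 counts, the detection floor used here, correspond to between 0.0697 and 0.183 counts per 1000000 gene counts (CPM). Between 22452 and 24575 genes had a count in a soma library and between 4263 and 10242 in an axonal one. All 8 neuron markers, such as Stmn2 and Gap43, were detected in every group. The axonal samples are labelled as a pure axonal preparation, and the markers go against this. All 10 astrocyte markers were detected in at least 1 library of both axonal groups. Their summed level was 4841 to 25995 CPM in control axons and 4972 to 20696 in stretched axons. In somata it was 5304 to 14390 in control and 5546 to 11733 in stretched cultures. Gfap alone had a mean of 12715 CPM in control and 7712 in stretched axons, of summed means of 15878 and 10468. Against somata, 7 of the 10 had a negative log2 fold change in control axons and 8 in stretched axons. The medians were -0.48 and -0.83, beside -1.40 and -1.13 over all genes tested. Map2, a dendritic and somatic transcript, stood at 25.6 to 656 CPM in control axons and 308 to 635 in stretched axons. Of 8 microglial markers, 6 were below the floor in every control axon library and 3 in every stretched axon library, Cx3cr1, P2ry12 and Itgam in both groups. The summed level of the 8 nevertheless reached 494 CPM in 1 control axon and 401 CPM in 1 stretched axon library, beside at most 76.3 CPM in control somata, while the median axonal library of either group stood near 0 (0.111 and 0.0642 CPM). Tubulin reads in axonal libraries cannot be assigned to a cell type, and the part of glial or somatic RNA in them was not tested. In bulk samples, fewer cells of a type and less RNA per cell cannot be told apart.

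In somata the tubulin genes stood in 2 tiers. Levels between genes are given as CPM per kb of transcript. In control somata Tuba1a was highest, at 3385 ± 373 CPM per kb (SD, n = 6), and ranked 3 among 55141 genes in somata by this measure. Tubb3 followed at 1645 ± 229 (rank 16), without overlap between the libraries of these 2 genes. Tubb2a at 1105 ± 106, Tubb5 at 1014 ± 138, Tubb2b at 768 ± 115 and Tubb4a at 573 ± 43.7 CPM per kb came next, and each overlapped with its neighbour in this order. Below a gap stood Tuba1b at 99.9 ± 21.2, Tubb6 at 49.7 ± 11.6, Tuba4a at 34.2 ± 4.49 and Tuba1c at 7.06 ± 2.38 CPM per kb, where only Tubb6 and Tuba4a overlapped. The order was the same in stretched somata, where Tubb5 no longer overlapped with Tubb2b, nor Tubb6 with Tuba4a.

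The 10 genes together took 1.70 ± 0.186% of all gene counts in control somata and 1.44 ± 0.126% in stretched somata (SD, n = 6 each). Tuba1a made up 96.0 ± 0.453% of the summed alpha level per kb in control and 96.9 ± 0.118% in stretched somata, a share that read sharing among the Tuba1 genes can move. Control and stretched soma libraries overlapped in the share of each beta gene. Tubb3 made up 31.9 ± 1.21% of the summed beta level per kb in control somata and 33.3 ± 0.505% in stretched somata, and Tubb2a 21.5 ± 1.35% and 20.9 ± 0.827%. Tubb5 made up 19.6 ± 0.599% and 19.6 ± 0.903%, and Tubb4a 11.2 ± 0.779% and 11.8 ± 1.12%. The mean share was lower with stretch for Tubb2b, at 14.8 ± 0.591% and 13.6 ± 0.388%, and for Tubb6, at 0.964 ± 0.188% and 0.736 ± 0.0757%. The ratio of the summed alpha to the summed beta level per kb was 0.686 ± 0.0561 in control and 0.759 ± 0.0445 in stretched somata.

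Stretch was compared with the null gradient in somata first. Of the 10 tubulin genes, 9 were lower and 0 higher by the test (edgeR quasi-likelihood, Benjamini-Hochberg adjusted p under 0.05 over 15632 genes), where 13.9% of all genes tested were lower and 25.1% changed in either direction. The median log2 fold change of the 10 was -0.42 beside -0.03 over all genes tested. Of these, Tubb4a fell by 16.1% and Tuba1c fell by 51.3%, the smallest and the largest decrease, and the most abundant gene, Tuba1a, did not pass. The plot of CPM by library shows these values for every gene and group.

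**Figure D1:**
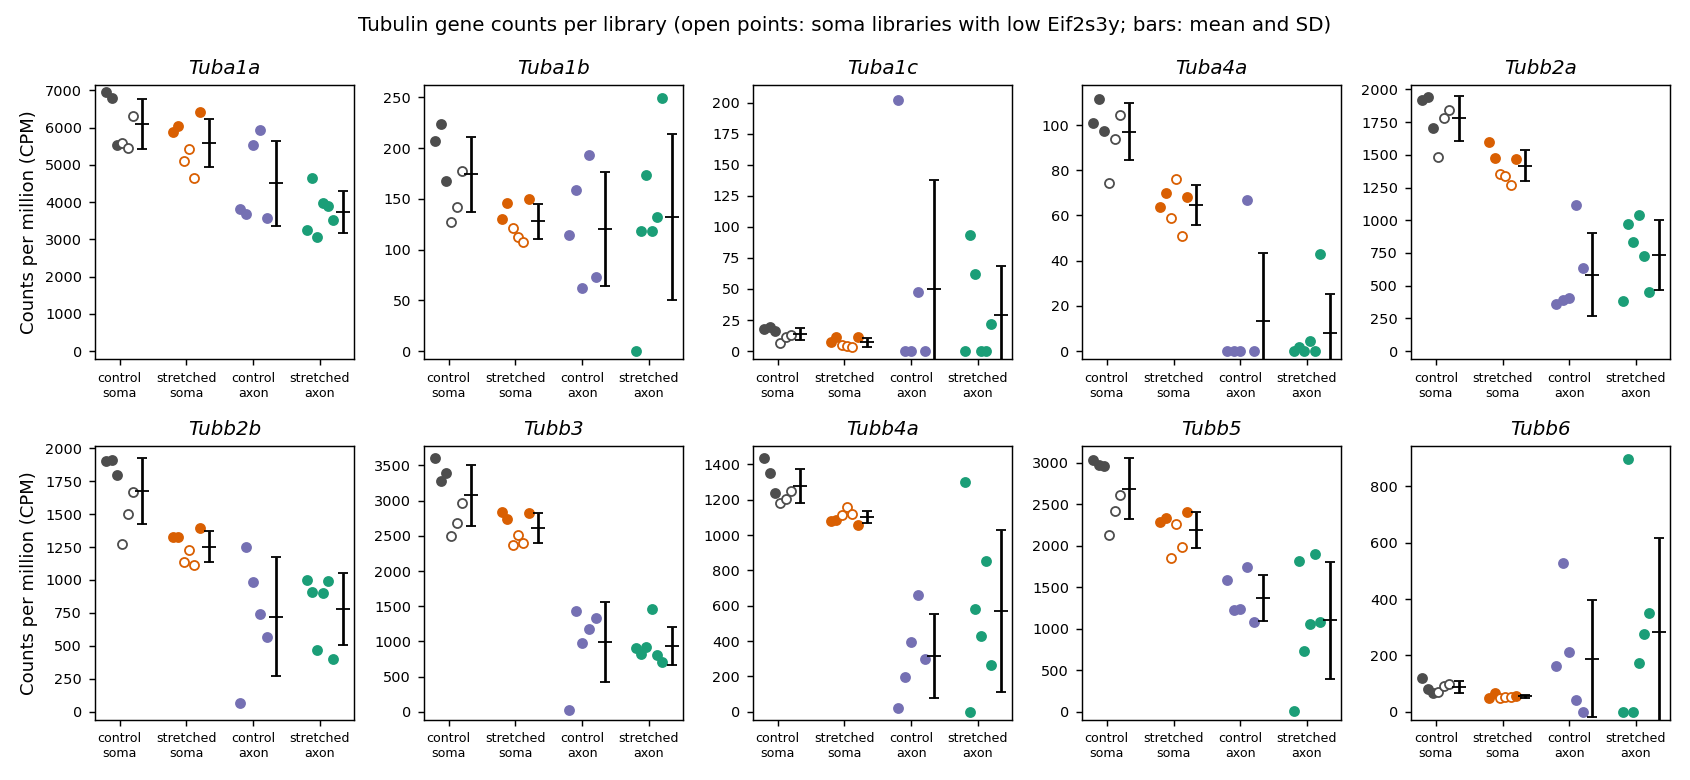
Counts per 1000000 gene counts (CPM, y axis, linear, 1 panel per gene) in each library of the 4 groups (x axis). Points are libraries, open where a soma library had low Eif2s3y, and the bars give the mean and SD, cut at the lower edge of the panel. Soma points lie close together and shift downward with stretch, while axonal points of Tuba1c and Tubb6 run from 0 to above the soma level. The median of Tubb6 was 161 CPM in control and 224 CPM in stretched axons. Its highest soma library stood at 119.9 CPM in control and 66.5 CPM in stretched cultures.

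Among the alpha genes, Tuba1a had 5459.6 CPM in its lowest, 5949 in its median and 6953 in its highest control soma library, and 4654, 5660.1 and 6428 in stretched somata. These groups overlapped widely, and the log2 fold change was -0.17 (SE 0.09, edgeR adjusted p = 0.180). Tuba1b, a widely expressed alpha isotype, ran from 127 over a median of 173 to 224 CPM in control and from 108 over 126 to 149.7 CPM in stretched somata. It fell by 28.9% (log2 fold change -0.49, SE 0.13, edgeR adjusted p = 0.0177), with 3 of 6 stretched libraries below every control library. Tuba1c shares 99.4% of the first 1275 coding bases with Tuba1b. It ran from 6.84 over 14.2 to 19.5 CPM in control and from 3.66 over 5.81 to 11.6 CPM in stretched somata. It fell by 51.3% (log2 fold change -1.04, SE 0.32, edgeR adjusted p = 0.0286), the largest decrease at the lowest level. Tuba4a is encoded without a terminal tyrosine. It ran from 74.2 over 99.3 to 111 CPM in control and from 50.8 over 66.0 to 76.2 CPM in stretched somata. It fell by 35.4% (log2 fold change -0.63, SE 0.11, edgeR adjusted p = 0.00432), and 1 stretched library lay above the lowest control library.

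Among the beta genes, the neuronal isotype Tubb3 had 3602, 3286, 3398, 2499.6, 2688 and 2968 CPM in control somata 1 to 6, and 2846, 2743, 2374, 2515, 2404 and 2819 CPM in stretched somata 1, 2, 4, 5, 6 and 8. Control somata 4 and 5 thus lay within the stretched range. Tubb3 fell by 17.3% (log2 fold change -0.27, SE 0.09, edgeR adjusted p = 0.0402). Tubb2a and Tubb2b, the pair of nearly identical genes, were both lower: Tubb2a fell by 22.7% (log2 fold change -0.37, SE 0.08, edgeR adjusted p = 0.00845) and Tubb2b fell by 27.4% (log2 fold change -0.46, SE 0.10, edgeR adjusted p = 0.00761). Control levels of Tubb2a ran from 1482 over 1811 to 1944 CPM and stretched levels from 1272 over 1410.2 to 1599 CPM. Those of Tubb2b ran from 1274 over 1732 to 1909 CPM and from 1111 over 1277 to 1398 CPM, and in both genes control soma 4 alone overlapped with the stretched libraries.

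Tubb5, the most widely expressed beta isotype, ran from 2127 over 2787 to 3026 CPM in control and from 1856 over 2273 to 2409 CPM in stretched somata, and fell by 21.0% (log2 fold change -0.34, SE 0.10, edgeR adjusted p = 0.0194). Tubb6, a low beta isotype in these cultures, ran from 65.1 over 86.2 to 119.9 CPM in control and from 49.8 over 51.2 to 66.5 CPM in stretched somata. It fell by 39.6% (log2 fold change -0.73, SE 0.14, edgeR adjusted p = 0.00505), and 5 of 6 stretched libraries lay below every control library. Tubb4a was the only member whose groups did not overlap. It had 1180.4 to 1435 CPM in control and 1059 to 1158 CPM in stretched somata, and fell by 16.1% (log2 fold change -0.25, SE 0.07, edgeR adjusted p = 0.0179). Among all genes tested, 2.27% were lower without overlap.

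Marker levels moved with this comparison. The summed level of the 8 neuron markers was 4403 to 5273 CPM in control and 4323 to 4511 CPM in stretched somata, with 4 of the 8 lower and 1 higher by the same test. None of the 10 astrocyte markers passed, with summed levels given above, and 2 of 7 microglial markers tested were lower. The summed level of the 7 somatodendritic or nuclear transcripts was 2928 ± 379 CPM in control and 2440.1 ± 370.2 CPM in stretched somata (SD, n = 6 each), with 2 of the 7 lower and 1 higher. That of the oligodendrocyte lineage markers was 63.3 ± 12.3 and 47.2 ± 7.93 CPM, with 0 of 6 tested lower and 1 higher. The part of cell composition in the tubulin decreases was not tested.

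Soma libraries also fell into 2 sets by Eif2s3y, a Y-linked gene: controls 1, 2 and 3 with stretched 1, 2 and 8 stood at 24.7 to 28.7 CPM, and controls 4, 5 and 6 with stretched 4, 5 and 6 at 5.39 to 13.2 CPM. Tubulin levels differed between the sets. Mean control Tubb3 was 3428 CPM in the high set and 2719 in the low set, and mean control Tubb5 was 2988 and 2385 CPM. Within each set all 10 genes had a lower mean with stretch. The difference was -18.3% in the high and -10.6% in the low set for Tubb3, -4.74% and -12.4% for Tuba1a, -34.8% and -31.9% for Tuba4a, and -19.9% and -6.79% for Tubb4a. With the set as a covariate 9 members passed, where 33.9% of all genes did. In the high set alone 8 members passed, beside 29.2% of all genes, and in the low set alone none did, beside 0 of 15718 genes in edgeR. At an unadjusted p under 0.05 the low set had 2739 genes and 6 members in edgeR, and DESeq2 called 162 genes and 2 members.

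The decreases depended on whether transcript length and GC content were allowed for. With smooth offsets for both, 3 members passed, all lower (Tuba4a, Tubb2b and Tubb6), where 15.6% of all genes did. Tuba4a then had a log2 fold change of -0.52, Tubb2b of -0.28 and Tubb6 of -0.45. Tubb3 came to -0.0041, Tubb4a to -0.04 and Tubb2a to -0.08, and Tuba1a turned to 0.08. Tubb3 was the least stable of the calls in other respects too: it passed in 3 of 12 fits that left out 1 library, and missed with total counts only (edgeR adjusted p = 0.0733). Tuba1c passed in 6 of those 12 fits, with edgeR adjusted p up to 0.0675. Tuba1b, Tuba4a, Tubb2a, Tubb2b, Tubb4a and Tubb6 passed in all 12. Leaving out control soma 4 raised the number of genes called in the whole table to 6072 of 15857 (38.3%), with 9 members among them.

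**Figure D2:**
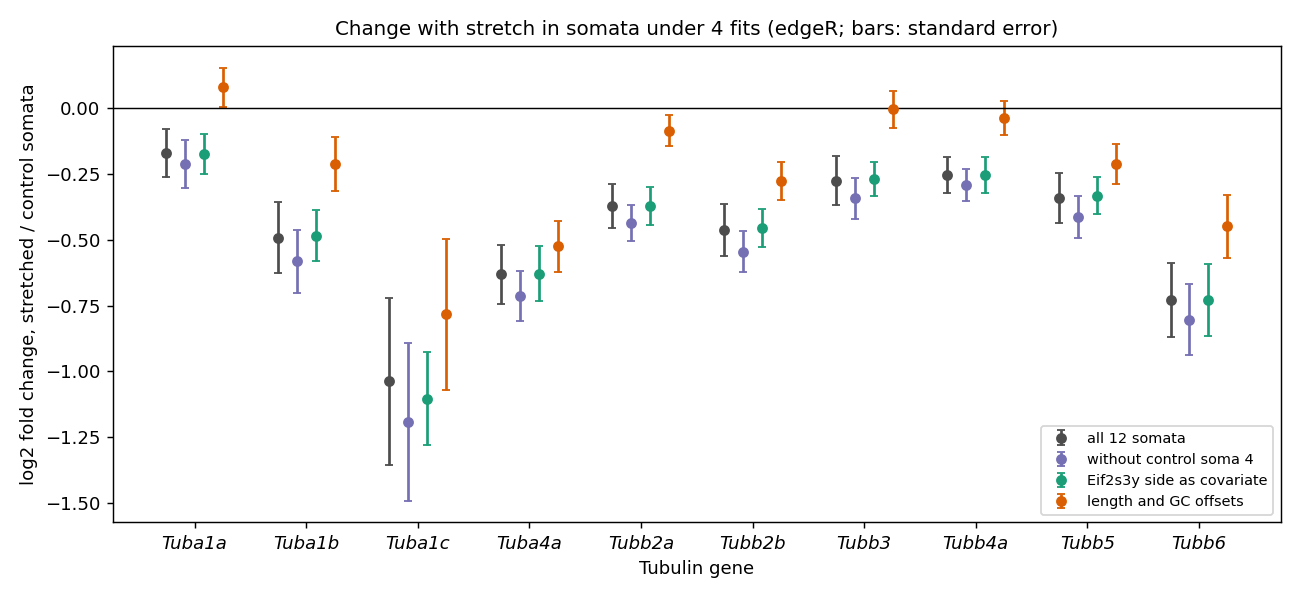
Log2 fold change, stretched over control somata (y axis), of each tubulin gene (x axis) in 4 edgeR fits, with standard errors as bars. The values with length and GC offsets lie above those of the other 3 fits for every gene, at 0.08 for Tuba1a and -0.0041 for Tubb3.

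In axonal libraries, detection differed between the isotypes. Tuba1a, Tubb2a, Tubb2b, Tubb3 and Tubb5 reached 3 counts in all 11 axonal libraries, Tuba1b and Tubb4a in 10, Tubb6 in 8, Tuba1c in 5 and Tuba4a in 4. Of the 88 genes with at least 1000 CPM in somata, 80 (90.9%) were detected in all 11 libraries, and of all genes 1.53%. Tubb6, Tuba1c and Tuba4a, detected least often, had soma means of only 70.8, 10.5 and 80.9 CPM. The share for other genes at such levels was not taken, and whether detection followed level was not tested. Tuba1a varied least, between 3074 and 5937 CPM with a coefficient of variation of 22.4% over the 11 libraries. For Tubb3 it was 42.5%, for Tubb4a 83.9%, for Tubb6 114% and for Tuba4a 214%.

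Single axonal libraries held little of abundant beta isotypes. Tubb3 had 19.8, 1426, 973, 1174 and 1339 CPM in control axons 1, 2, 3, 5 and 7. Tubb2b had 65.2, 1253, 984, 744 and 564 CPM and Tubb4a 20.9, 194, 398, 661 and 299.7 CPM in the same libraries, so control axon 1 was lowest for all 3 genes. The same library was not low for Tubb5, which had 1582, 1223, 1232, 1745 and 1078 CPM, nor for Tuba1a, with 3809, 3668, 5521, 5937 and 3567 CPM. Among stretched axons, Tubb5 ran from 13.1 over a median of 1074 to 1899 CPM, with the lowest value in stretched axon 1. That library held the highest Tubb4a, at 1301 CPM, while stretched axon 2 had no count of Tubb4a. Tuba1a stood at 2496 ± 629 CPM per kb in control axons (SD, n = 5) and 2070.0 ± 316 in stretched axons (SD, n = 6). It lay clear of Tubb3 at 528 ± 304 and 499.7 ± 143. Below Tuba1a each gene overlapped with the next, so neighbours could not be put in order, while some genes further apart were separate. The lowest control axon of Tubb5, at 407 CPM per kb, lay above the highest of Tubb4a, at 297. In stretched axons the lowest Tubb3 value, 375, lay above the highest Tuba1b value, 143.

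**Figure D3:**
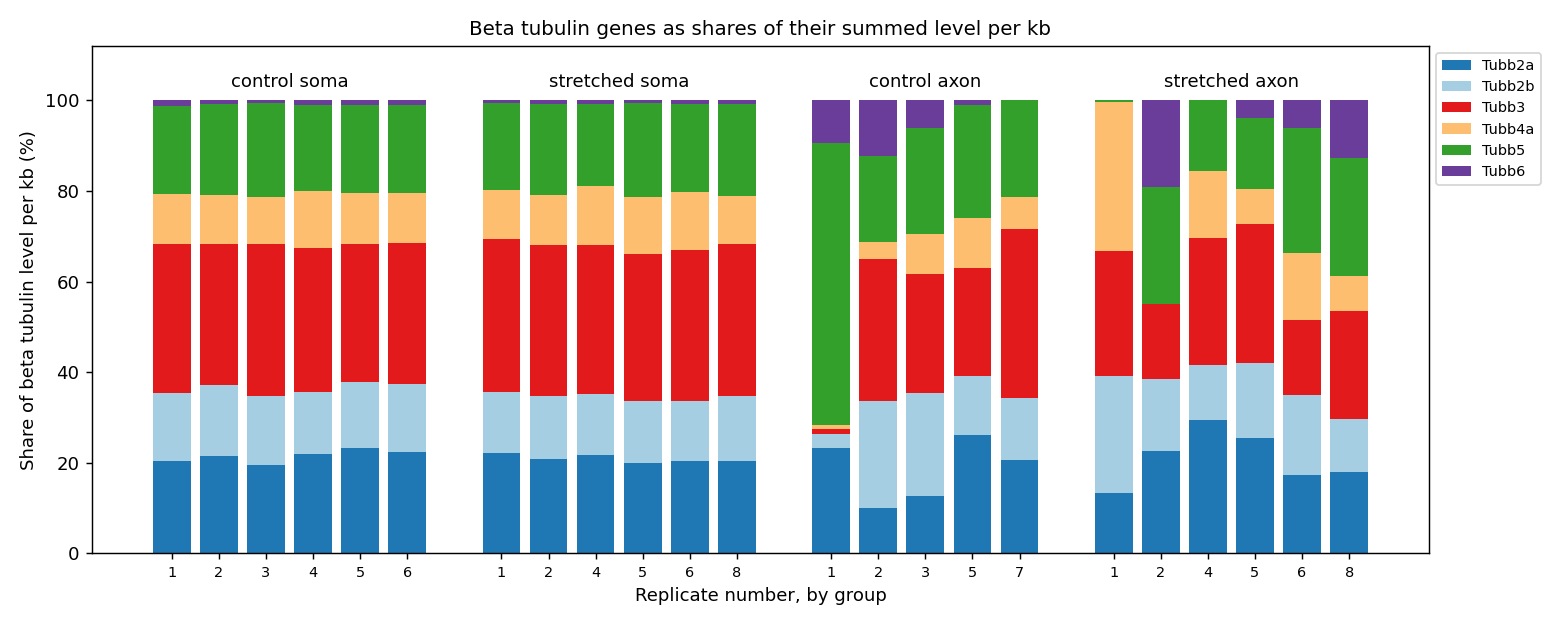
Share of each beta tubulin gene in the summed beta level per kb (y axis, percent), 1 stacked bar per library, grouped as control soma, stretched soma, control axon and stretched axon (x axis, replicate number). Soma bars are nearly alike, with Tubb3 between 30.4% and 33.9%, while its share in axonal bars runs from 1.10% in control axon 1 to 37.5% in control axon 7.

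The beta mixture shown by library therefore varied far more among axonal than among soma libraries. Tubb5 made up 30.1 ± 18.0% in control and 18.6 ± 10.4% in stretched axons, and reached 62.1% in control axon 1. The 10 genes took 0.885 ± 0.207% of gene counts in control axons (SD, n = 5) and 0.830 ± 0.155% in stretched axons (SD, n = 6). The ratio of summed alpha to summed beta level per kb was 1.43 ± 0.584 and 1.03 ± 0.174.

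No tubulin gene passed the test for stretch in axons. None of the 9 members tested passed in edgeR, where 0% of 4947 genes did, and 46 genes, none of them a member, had an unadjusted p under 0.05. DESeq2 called 18 genes, 0 of them members. Tuba4a did not pass the filter on low counts and was not tested. It reached 3 counts in 1 of 5 control and 3 of 6 stretched axons. The log2 fold change was -0.31 (SE 0.21) for Tuba1a, 0.26 (SE 0.51) for Tubb2a, 0.08 (SE 0.58) for Tubb2b, -0.10 (SE 0.65) for Tubb3 and -0.31 (SE 0.70) for Tubb5. For Tubb4a it was 0.74 (SE 1.29), for Tuba1b 0.14 (SE 1.73), for Tubb6 0.63 (SE 1.97) and for Tuba1c -0.84 (SE 2.77). The errors of the 8 genes other than Tuba1a were 0.51 or more, so changes as small as most of those in somata were not detectable here. Tuba1a itself had 3074, 3720.2 and 4651 CPM as lowest, median and highest stretched value, overlapping with the control axons.

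Axons were then compared with somata within each condition. In control cultures 4 members were lower in axons and 0 higher, where 34.4% of 14728 genes tested were lower and 0.856% higher (35.3% in either direction). The log2 fold change was -0.67 (SE 0.21, edgeR adjusted p = 0.0250) for Tuba1a, -1.21 (SE 0.18, edgeR adjusted p = 0.00017) for Tubb5, -1.81 (SE 0.36, edgeR adjusted p = 0.0013) for Tubb2a and -2.19 (SE 0.67, edgeR adjusted p = 0.0225) for Tubb4a. Differences between these genes were not tested. Tuba1a passed in 6 of the 11 fits that left out 1 library and missed with no filter on low counts (edgeR adjusted p = 0.158). Tubb2b (-1.46, SE 0.55, edgeR adjusted p = 0.0614) and Tubb3 (-1.88, SE 0.72, edgeR adjusted p = 0.0699) did not pass, although all of their axonal values lay below all soma values, as for 40.6% of genes tested. Both passed without control axon 1, at -1.17 and -1.56. Without control axon 2 the count of members fell to 2, Tubb2a and Tubb5. Tuba1b (-0.78), Tuba4a (-2.90), Tuba1c (1.53) and Tubb6 (0.76) did not pass, and Tuba1c changed sign without control axon 1 (-0.27). Without control axon 5, Tuba1b passed at -1.12 (edgeR adjusted p = 0.0489), and Tuba4a, then at 0 in all control axons, passed as well (edgeR adjusted p = 1.9e-05).

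In stretched cultures 4 members were again lower in axons and 0 higher, where 28.4% of 14466 genes were lower and 0.843% higher (29.3% in either direction). Tubb3 had the log2 fold change with the smallest p, -1.98 (SE 0.18, edgeR adjusted p = 2.8e-06), followed by Tuba1a at -1.06 (SE 0.14, edgeR adjusted p = 4.1e-05). Tubb2a came to -1.43 (SE 0.26, edgeR adjusted p = 0.00068) and Tubb2b to -1.20 (SE 0.23, edgeR adjusted p = 0.00087). Tubb2b no longer passed when scaled by total counts alone (-0.68, edgeR adjusted p = 0.0543) or with no filter (edgeR adjusted p = 0.0526). Tubb5 (-1.42, SE 0.73, edgeR adjusted p = 0.230) and Tubb4a (-1.49, SE 1.16, edgeR adjusted p = 0.536) did not pass. Tubb5 passed without stretched axon 1 (-1.17) and Tubb4a without stretched axon 2 (-1.12), the libraries with the lowest value of each. In 5 of the 10 members, Tuba1a, Tuba4a, Tubb2a, Tubb2b and Tubb3, all 6 stretched axons lay below every stretched soma library, as they did for 34.6% of genes tested. Tuba1b (-0.35), Tuba4a (-3.24), Tuba1c (1.53) and Tubb6 (1.91) did not pass, and Tuba1b was at 0.05 when scaled by total counts alone. Without stretched axon 8, Tuba4a passed at -6.14 (edgeR adjusted p = 0.0219). Scaling by total counts moved the median of all genes up by 0.13 in control and 0.40 in stretched cultures.

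**Figure D4:**
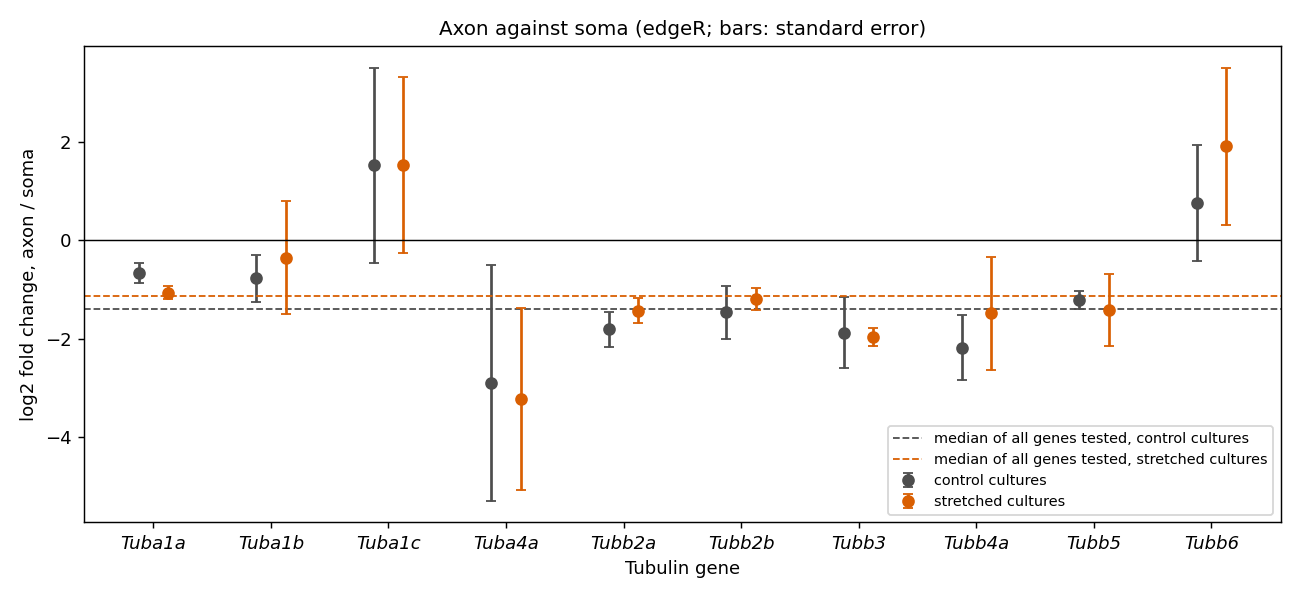
Log2 fold change, axon over soma (y axis), of each tubulin gene (x axis) in control and stretched cultures, with standard errors as bars and dashed lines at the median of all genes tested (-1.40 in control, -1.13 in stretched cultures). Tuba1a lies above the control median in control cultures at -0.67, Tubb3 lies below both medians, and Tuba1c, Tuba4a and Tubb6 have errors above 1 in both conditions.

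As the plot of axon over soma shows, the tubulin genes sat near the rest of the table. Their median log2 fold change was -1.34 in control cultures, where all genes tested had -1.40, and -1.31 in stretched cultures, where all had -1.13. The test of whether the change with stretch differed between axons and somata (interaction) called 0 members in edgeR, where 21.8% of 16113 genes passed. No member had an unadjusted p under 0.05, and DESeq2 called 0 members as well. Of the interaction values, that of Tuba1a was -0.24 (SE 0.27) and that of Tubb2a 0.50 (SE 0.46), the members with the smallest errors. The other members had errors from 0.58 (Tubb2b) to 2.79 (Tuba4a). Differences as small as most changes in somata were therefore not detectable for them. Without control axon 5, which held the highest Tubb2a and the only Tuba4a counts among control axons, Tubb2a passed at 1.05 (edgeR adjusted p = 0.0313), and so did Tuba4a.

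Other genes of tubulin biology were read from fixed lists in the fits without length and GC offsets. There 13.9% of all genes tested for stretch in somata were lower and 11.2% higher. The lists were not counted with those offsets, under which fewer tubulin members passed. Of 10 other tubulin genes, 6 were tested for stretch in somata and 4 were lower: the beta gene Tubb4b (-0.58, SE 0.10, edgeR adjusted p = 0.0033), the alpha gene Tuba8 (-1.15, SE 0.34, edgeR adjusted p = 0.0243), and the gamma tubulins Tubg2 (-0.47) and Tubg1 (-0.32), which nucleate microtubules. Of the 7 cofactors that assemble the tubulin dimer, 4 were lower and none higher: Arl2 (-0.45), Tbca (-0.44), Tbcc (-0.36) and Tbcb (-0.25). Of 15 prefoldin and CCT chaperonin genes, which fold newly made tubulin and actin, 10 were lower and none higher. Pfdn5 (-0.70), Pfdn6 (-0.53), Cct5 (-0.30) and Cct8 (-0.27) are examples of these. The median log2 fold change was -0.40 in the first list, -0.25 in the second and -0.31 in the third, beside -0.03 for all genes tested.

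Lists for microtubule nucleation and tubulin modification held calls in both directions, where 11.2% of all genes were higher and 13.9% lower, and their counts lie near these shares. Of 17 genes of the gamma-tubulin ring complex and the augmin complex, 2 were higher, Tubgcp6 (0.55) and Tubgcp5 (0.48), and 2 lower, Haus4 (-0.62) and Haus7 (-0.44). Of 21 tubulin-modifying enzymes tested, 4 were higher, among them Vash2 (0.40), a detyrosinating enzyme, and Agtpbp1 (0.39), which removes glutamates from the tail. In the same list 2 were lower: Tpgs1 (-0.46), a subunit of a polyglutamylase, and Sirt2 (-0.41), a deacetylase. Of the 3 genes of the autoregulation pathway, Cnot11, a subunit of the CCR4-NOT deadenylase, was lower (-0.86, SE 0.24, edgeR adjusted p = 0.0181). Ttc5, the factor that recognises the tubulin chain, and Scaper did not pass. None of the genes of these 6 lists that were tested for stretch in axons passed in edgeR.

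Between axons and somata every call in these lists was lower in axons. In control cultures these were 2 of 6 other tubulin genes tested, 1 of 7 dimer cofactors, 6 of 17 ring and augmin complex genes and 6 of 21 modifying enzymes, where 34.4% of all genes were lower. In stretched cultures they were 3, 1, 6 and 7 of the same numbers, where 28.4% were lower. Tuba8 and Tube1, low in somata, were below the floor in every axonal library. Tbcd, a dimer cofactor at 72.5 ± 7.98 CPM in control somata (SD, n = 6), was below the floor in all control axons. That is at least 570-fold lower with the floor of 3 counts averaged over these libraries. Tbcd did not pass in stretched cultures, where the 1 cofactor called was Tbcel. Tubgcp6 was at least 135-fold lower in control and at least 185-fold lower in stretched axons by the same measure. None of the 15 prefoldin and chaperonin genes was called between axon and soma in either condition, with a median log2 fold change of -0.53 in control and -0.21 in stretched cultures.

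Across the 12 soma libraries, members varied together. The Pearson correlation of log2(CPM + 1) with Tubb3 was 0.961 for Tubb5, 0.947 for Tubb2b, 0.756 for Tuba1a and 0.647 for Tubb6. Among 9273 other genes with at least 10 CPM, Ndn (0.975), Aldh2 (0.973) and Fxyd6 (0.965) were most like Tubb3. For Tuba1a they were Gyg (0.909), Tnfrsf1a (0.897) and Igtp (0.897). These 12 libraries share the grouping by stretch and by Eif2s3y, which enters each correlation.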

How the data were processed

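RNA libraries were made from poly(A) RNA with a low-input kit and sequenced as 150-base read pairs, per the labels' protocols, and the labels mention unique molecular identifiers. The authors deposited whole-number read counts per Ensembl gene in 23 libraries. Per the submitters' processing notes, FastQC 0.11.9, MultiQC 1.12, fastp 0.20.1, STAR 2.7.08a, HTSeq 0.13.5 and the mm10 build were used. The strand setting, the annotation release and any removal of duplicates are not given in the sources used here. Between 5.43% and 13.4% of reads were counted apart as aligned to more than 1 place and 4.37% to 5.94% as ambiguous, and both were left out. Reads outside genes, 3.18% to 7.94%, were also left out.

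Groups follow the labels. The members and gene lists were chosen with earlier results of these data known. Symbols were matched for 55141 of 55487 identifiers, and 1 gene of the 24 modifying enzymes, Matcap1, had no match. All 10 members are named in every comparison. From each other list, the 2 highest and 2 lowest log2 fold changes among genes that passed are named for stretch in somata. For axons against somata only a selection of such genes is named: Tuba8, Tube1, Tbcd, Tbcel and Tubgcp6. The 3 genes most like Tubb3 and Tuba1a are those with the highest correlation in somata. Depth ran from 16369153 to 43048953 counts. Amplified reads are not independent molecules, so the floor of 3 counts covers counting error only. Tests used edgeR 4.0.16 in R 4.3.3 (filterByExpr, TMM, robust quasi-likelihood F test), fitted to all genes on the libraries compared and adjusted by Benjamini-Hochberg at 0.05. For the interaction the 4 groups entered 1 fit. A standard error (SE) is the log2 fold change divided by the square root of F. CPM values shown are plain counts per 1000000 gene counts, and CPM per kb uses the longest GENCODE M21 transcript. Alternatives were total counts only, DESeq2 size factors, no filter, DESeq2 1.42.0, the replicate number as a block, leaving out each library, and for somata smooth offsets for length and GC (mgcv 1.9.3) and the Eif2s3y set as covariate. Fits within 1 Eif2s3y set, and with the covariate and control soma 4 left out, were added after the data were seen. The fits were tested on simulated counts. RefSeq promoter entries matched 8 of the 10 members, and no entry was used for Tubb2b and Tubb6.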

Additional observations from a re-analysis of the deposited data

Results flagged for a closer look

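In 40 sets of values (10 genes in 4 groups), the gap between the highest or lowest library and the rest was compared with Dixon's 95% limit. Chance passes about 1 in 20 such sets, and 4 passed here, all in axonal libraries. Tuba1c in control axon 1 was at 202 CPM, with the next library at 47.5 CPM. Tuba4a in control axon 5 was at 66.9 CPM, with the other 4 control axons at 0. Tuba4a in stretched axon 8 was at 42.9 CPM, with the next at 4.52 CPM. Tubb3 in stretched axon 5 was at 1460 CPM (1456 unrounded), with the next at 914 CPM.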

How the results depend on the processing

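In somata the number of members called, 9, stayed between 7 and 10 in the other scalings, without a filter, with DESeq2, in the high Eif2s3y set and with the Eif2s3y covariate, and between 6 and 9 when 1 library was left out. It was 3 with length and GC offsets, 4 with the replicate block and these offsets together (12.3% of genes), and 0 in the low Eif2s3y set, which holds 3 libraries a group. With the offsets Tuba1a reversed to 0.079, and with block and offsets to 0.013, as did Tubb3 (0.0084). In axons against somata the count of members was 2 to 6 in control cultures and 4 to 5 in stretched cultures when 1 library was left out, and in the interaction 0 to 2. The cause of these changes was not tested.

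The labels do not say that replicate numbers mark shared cultures. Correlations of same-numbered deviations in somata were 0.316, 0.285, 0.128, 0.0028 and 0.397 for numbers 1, 2, 4, 5 and 6, beside a mean of -0.0361 for other pairs, so 4 of 5 were above 0.1 and 1 was not, and 2 of the 5 pairs correlated best with each other. In axons they ran from 0.0072 to 0.0369. Between axons and somata they ran from 0.0322 to 0.0891 in control and from -0.0238 to 0.0417 in stretched cultures. Other pairs there had means of -0.0102 and -0.0026. Numbers 2 and 3 in control and 1 and 6 in stretched cultures correlated best with each other. The fits without the block were therefore kept as the reported ones. Shared numbers in somata, and between axons and somata, may still carry some pairing. With the replicate block 7 members passed for stretch in somata (20.5% of genes; in edgeR Tubb3 at -0.26 and Tubb4a at -0.25 no longer did), 0 in axons, 4 for axon against soma in control cultures (Tubb2b in, Tuba1a out), 5 in stretched cultures (Tubb5 in), and 0 for the interaction, where calls over all genes dropped from 3509 to 6. Reversed values under the block were, for stretch in axons, -2.31 for Tuba1b, 1.05 for Tubb3, -0.91 for Tubb4a and -0.39 for Tubb6. For axon against soma they were -3.31 (control) and -3.04 (stretched) for Tuba1c, and for the interaction -0.56 for Tuba1c and 0.78 for Tuba4a.

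The remaining reversals concern values that passed neither before nor after, except Tuba4a. With total counts Tuba1b in stretched axons against somata was 0.048. In the interaction, DESeq2 size factors and DESeq2 each gave -0.050 for Tuba1c and -0.033 for Tubb3. Leaving out 1 library gave, for stretch in axons, -0.18 to 0.52 for Tuba1b, -1.17 to 0.99 for Tuba1c, -0.21 to 0.33 for Tubb2b, -0.41 to 0.075 for Tubb3 and -0.063 to 1.45 for Tubb6. It gave -0.27 to 1.84 for Tuba1c in control axons against somata. In the interaction it gave -0.69 to 1.83 for Tuba1c, -3.21 to 11.11 for Tuba4a, -0.25 to 0.26 for Tubb3 and -0.35 to 0.18 for Tubb5. The highest Tuba4a value comes without control axon 5, when all control axons are at 0, and depends on the prior count of the fit. Size factors moved the median interaction of all genes by -0.13. Limits: axonal libraries held few detected genes and varied widely, and reads shared between near-identical isotypes were left out of the counts.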
